A study of Homo sapiens with 8 samples.

Results

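The regions described here are the JunD peaks that overlapped the 1 kb on either side of a gene start in smoke-exposed BEAS-2B cells, an established line of virus-transformed human bronchial epithelial cells. A gene start was taken as the 5′ end of the outermost exon in the authors' expression table, for gene names on 1 chromosome and strand that spanned at most 2500000 bp. Unless a RefSeq start is named, distances refer to that exon, and which start of a gene was in use was not determined. Of 61360 listed peaks, 1931 (3.15%) lay within 1 kb of a start by this rule, at 2128 of 29417 placed gene starts (7.23%). The peaks came from chromatin immunoprecipitation followed by sequencing (ChIP-seq), with 1 library made with a JunD antibody and 1 input library, both from cells that had received 8% cigarette smoke extract (CSE) for 24 h, with no transfection named in the labels. Expression came from RNA sequencing of 6 other libraries. In 3 of them the cells had been transfected for 12 h with the plasmid pcDNA3.1-JunD, and in the other 3 with the empty vector, before both groups were exposed to CSE for 24 h. For the RNA experiment the CSE concentration was not given in the sources used here, and neither experiment has a group without smoke in the libraries analysed here. No selection of transfected cells is described, so each RNA value is an average over the whole culture. The labels do not say if the 3 libraries of a group were separate cultures, and p-values here reflect the spread between libraries alone, which could be technical.

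JunD is a member of the Jun family and a subunit of AP-1, a dimeric transcription factor that Jun proteins form with one another, with Fos proteins or with ATF proteins. AP-1 dimers bind the TPA response element, TGACTCA or TGAGTCA, and Jun-ATF dimers also bind the cyclic AMP response element, TGACGTCA. AP-1 is known to act at promoters and, in many cell types, largely at enhancers far from them. In airway epithelium it is known for its part in the response to smoke, oxidants and cytokines. JUND itself, a gene with a single exon, had no such peak. Its RPKM (read density over exons, normalised to assigned reads) was 70.3, 63.5 and 103 after transfection of the JunD plasmid and 13.2, 10.5 and 10.6 after that of the empty vector, so the groups did not overlap (log2 fold change 2.71, SE 0.19, limma adjusted p = 1.02e-04). Reads from the plasmid and from the chromosomal gene were not separated. The RNA libraries held 15967955 to 29617655 assigned reads. Of 16 markers of bronchial epithelium, 7 had a mean RPKM of at least 1, and their summed RPKM was 389.3 to 424.7 in the JunD group and 450.2 to 487.7 in the empty-vector group. Of the 8 leukocyte markers found in the table, 1 reached that level, and none of the 7 endothelial or the 7 ciliated, secretory and alveolar markers did. The summed leukocyte markers were at 158.4 to 187.6 RPKM in the first and 37.27 to 41.65 in the second, and their part in the results was not tested. The 8 fibroblast markers found summed to 44.33 to 50.72 RPKM with JunD and 77.16 to 84.46 with the empty vector, and both of those tested fell; their part in the results was likewise not tested. None of the 5 marker lists had a gene with a peak near its start.

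Promoter sequence was read from RefSeq windows of build GRCh38.p14, each from 250 bases before to 50 bases after an annotated start. Peaks overlapped 542 of the 19538 windows that could be matched to a placed gene. The motif TGACTCA or TGAGTCA, searched on both strands, was found in 21 of these 542 windows (3.87%, exact binomial 95% interval 2.41 to 5.86) and in 3.97% of all 19538. The motif TGACGTCA, which is its own reverse complement and overlaps neither form of the other, was found in 12 of them (2.21%, 1.15 to 3.84) and in 2.51% of all. Both shares in the windows with a peak therefore lay close to the shares of all windows. A window is 300 bases long and a gene can have several, so the windows are not independent. Windows were found for 1026 of the 2128 genes with a peak (48.2%), which is under 80%, so a comparison of promoter composition gene by gene is void. Among windows with a peak, those overlapped by a peak of pileup 8 or more held TGACGTCA in 3.63% (1.47 to 7.33) of 193, and those with fold enrichment of at least 4 in 2.82% (0.343 to 9.81) of 71. In the same windows TGACTCA or TGAGTCA was found in 2.59% (0.846 to 5.94) and 1.41% (0.0357 to 7.60), and the interval of each of these 4 shares holds the share of all windows. Median GC content was 62% in the 542 windows and 63.7% in all. Other motifs were counted too. TGACGCAA or TTGCGTCA was found in 1.66% (0.762 to 3.13) of the 542 and 0.665% of all. GGGCGG or CCGCCC was in 61.8% and 60.5%, CCAAT or ATTGG in 36.3% and 34.4%, and TATAAA or TTTATA in 7.20% and 7.71%. At pileup 8 or more, GGGCGG or CCGCCC was in 68.4% (61.3 to 74.9) and CCAAT or ATTGG in 45.1% (37.9 to 52.4). Windows of expressed genes without a peak held these 2 in 67.4% and 35.2%.

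Of the 1931 peaks, 343 overlapped a window. Among them the motif itself lay under the peak at 10 peaks for TGACTCA or TGAGTCA and at 7 peaks for TGACGTCA. Sequence outside the windows was not read, so all other peaks, and the parts of peaks beyond a window, were not searched. The following sequences are the 250 bases before the RefSeq start of 6 genes with a motif under the peak. They run 5′ to 3′ on the gene's strand, with that motif in capitals. They were picked after their values were seen, because their expression was called changed or, at ZNF335, because its pileup was among the highest of all. POT1 (higher) and OMA1 (lower) were also called, with a motif under the peak, and are not shown.
GJA1, chr6:121435396-121435645, plus strand: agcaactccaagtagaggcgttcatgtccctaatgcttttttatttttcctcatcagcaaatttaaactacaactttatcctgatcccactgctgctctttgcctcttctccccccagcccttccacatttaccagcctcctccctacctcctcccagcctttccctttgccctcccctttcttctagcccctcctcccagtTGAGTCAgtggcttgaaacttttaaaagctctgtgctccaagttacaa
PTPN9, chr15:75579316-75579565, minus strand: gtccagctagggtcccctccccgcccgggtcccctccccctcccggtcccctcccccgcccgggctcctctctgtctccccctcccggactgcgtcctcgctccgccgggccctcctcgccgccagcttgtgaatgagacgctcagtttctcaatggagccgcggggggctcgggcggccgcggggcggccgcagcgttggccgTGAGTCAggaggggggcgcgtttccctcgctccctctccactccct
ZNF138, chr7:64794178-64794427, plus strand: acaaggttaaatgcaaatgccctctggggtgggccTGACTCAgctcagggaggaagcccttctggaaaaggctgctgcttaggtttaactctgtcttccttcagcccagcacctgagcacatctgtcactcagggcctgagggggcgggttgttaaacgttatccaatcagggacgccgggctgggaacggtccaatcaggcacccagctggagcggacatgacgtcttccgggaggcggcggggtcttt
TP53INP2, chr20:34704094-34704343, plus strand: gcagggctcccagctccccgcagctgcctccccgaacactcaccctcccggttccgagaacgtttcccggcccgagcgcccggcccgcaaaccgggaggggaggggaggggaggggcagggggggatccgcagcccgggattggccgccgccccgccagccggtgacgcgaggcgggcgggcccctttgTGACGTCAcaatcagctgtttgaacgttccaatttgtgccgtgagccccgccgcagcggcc
EXO1, chr1:241847954-241848203, plus strand: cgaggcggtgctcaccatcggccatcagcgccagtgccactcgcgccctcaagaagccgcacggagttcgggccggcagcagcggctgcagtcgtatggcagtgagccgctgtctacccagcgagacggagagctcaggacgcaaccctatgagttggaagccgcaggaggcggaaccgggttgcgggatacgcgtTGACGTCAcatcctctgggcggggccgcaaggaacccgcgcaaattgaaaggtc
ZNF335, chr20:45972204-45972453, minus strand: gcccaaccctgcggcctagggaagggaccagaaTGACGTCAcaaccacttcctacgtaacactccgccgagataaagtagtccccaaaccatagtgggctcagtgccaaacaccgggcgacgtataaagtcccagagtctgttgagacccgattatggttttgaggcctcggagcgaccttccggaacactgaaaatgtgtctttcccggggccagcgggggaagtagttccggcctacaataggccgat

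GJA1, which encodes the gap junction protein connexin 43, had TGAGTCA 48 bp before its RefSeq start. The peak over it (chr6:121435307-121435652) had a pileup of 8, a fold enrichment of 2.18 and a q-value of 0.579. GJA1 stood at 12.6, 13.4 and 13.3 RPKM with JunD, against 23, 23.7 and 22.7 with the empty vector, and it fell (log2 fold change -0.80, limma adjusted p = 7.28e-05). The zinc finger gene ZNF138 rose, from 2.28, 2.40 and 2.40 RPKM to 5.90, 6.50 and 5.72 (log2 fold change 1.19, limma adjusted p = 4.81e-05), and its motif lay under a peak with a fold enrichment of 2.67. EXO1, a DNA exonuclease of mismatch repair, rose by 0.37 on the log2 scale (limma adjusted p = 0.00302). TP53INP2, an autophagy regulator, fell by 0.40 (limma adjusted p = 0.00206) beneath a peak of pileup 12 and q of 0.0369. PTPN9, a protein tyrosine phosphatase, had a log2 fold change of 0.45 (limma adjusted p = 0.0162), which passed the threshold here but not without empty-vector replicate 2 (limma adjusted p = 0.0531) or replicate 3 (limma adjusted p = 0.0539). ZNF335 had a pileup of 16 and a log2 fold change of -0.12 (limma adjusted p = 0.319, and 0.0362 with median-of-ratios scaling). Genes with a motif under the peak thus included ones that rose, ones that fell and ones that did not pass the test.

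Peaks crowded around the start. Per 1000 starts, 18.4 peak centres lay in the 500 bp before the start and 16.8 in the 500 bp after it, against 10.1 to 12.2 in each 500 bp between 2 and 5 kb away on either side. At a mean RPKM of 1 or more, the 2 bins at the start held 19.5 and 18.7 per 1000, and those between 2 and 5 kb away held 7.94 to 10.4. For genes below that level they held 17.5 and 15.1, against 11.4 to 14.4 farther out. The rise at the start was therefore seen at expressed and at weakly expressed genes, and the level away from the start was lower around expressed genes. Of the 2191 pairs of a gene and a peak, 1077 had the peak centre upstream of the start and 1114 downstream, and in 387 (17.7%) the peak covered the start base itself. Over gene structure, 963 of the 1931 peaks (49.9%) touched an exon, 512 lay in introns without touching one, and 456 lay outside genes.

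**Figure D1:**
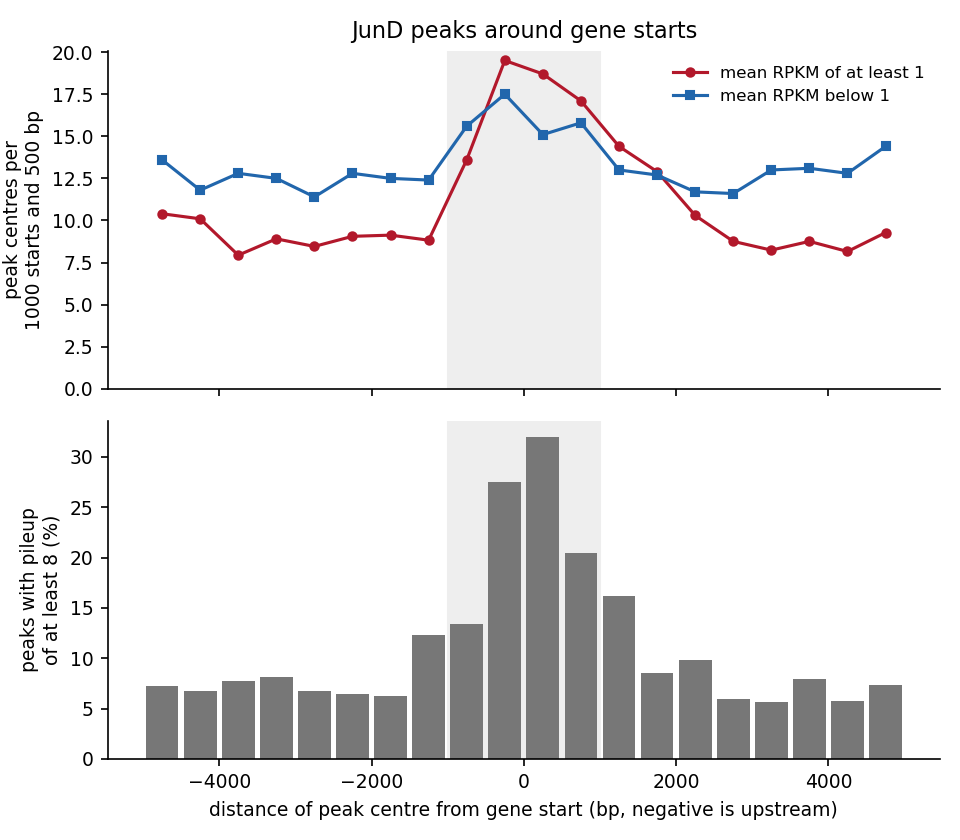
Top: peak centres per 1000 gene starts in 500 bp bins from 5 kb before to 5 kb after the start, for genes at a mean RPKM of 1 or more (red circles) and below 1 (blue squares). Bottom: share of the peaks in each bin with a pileup of at least 8. The shaded band spans 1 kb on either side, where both curves rise and the share of high pileup reaches 32% in the 500 bp after the start.

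Peaks near starts were taller than other peaks, with a like median fold enrichment. Pileup, the depth of overlapping fragments at the summit, had a median of 6 and ranged from 3 to 54 near starts, against a median of 5 over exons beyond 1 kb, in introns and between genes. A pileup of 8 or more was found in 389 of 1931 peaks near starts (20.1%, exact binomial 95% interval 18.4 to 22.0). The same was true of 5.11% (4.44 to 5.84) of the 3995 peaks over exons beyond 1 kb, 2.88% (2.68 to 3.10) of the 25147 in introns and 2.47% (2.29 to 2.65) of the 30287 between genes. Fold enrichment, the authors' ratio of the JunD signal to the local background, had medians of 3.117, 3.113, 3.116 and 3.122 in these 4 places. A fold enrichment of 4 or more was held by 10.2% (8.89 to 11.6) of peaks near starts and by 9.09%, 8.83% and 8.99% in the other places. One of 5 or more was held by 23 peaks near starts (1.19%, 0.757 to 1.78), against 0.576% (0.365 to 0.863) over exons, 0.378% (0.306 to 0.462) in introns and 0.439% (0.368 to 0.52) between genes, so the upper end was more often filled near starts. The median of pileup divided by fold enrichment, which rises with the background set against a peak, was 1.75 near starts and 1.45, 1.42 and 1.37 in the other places. The share of peaks with a pileup of at least 8 reached 27.5% in the 500 bp before the start and 32% in the 500 bp after it, while the median fold enrichment stayed between 3.08 and 3.12 in every bin within 5 kb. Background from the input was not read directly. The ratio of pileup to fold enrichment has pileup in its numerator, so its rise does not measure background alone. The part of background in the taller peaks was not tested.

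Peaks near starts were also wider. Their median width was 287 bp, against 273 bp over exons beyond 1 kb, 252 bp in introns and 251 bp between genes. The narrowest width in the list, the 251 bp that was the median between genes, was held by 36.9% (34.8 to 39.1) of peaks near starts and by 43.5%, 49.8% and 52.6% in the other places. The widest, 928 bp, lay by the clone-named gene RP11-167N5.5. A q-value below 0.05 was held by 100 of the 1931 peaks (5.18%, 4.23 to 6.26) and by 2.60% of all peaks. A q-value below 0.1 was held by 280 (14.5%, 13.0 to 16.2), so 85.5% of the peaks near starts did not meet even that false discovery rate. These intervals cover counting error in 1 list without a replicate.

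**Figure D2:**
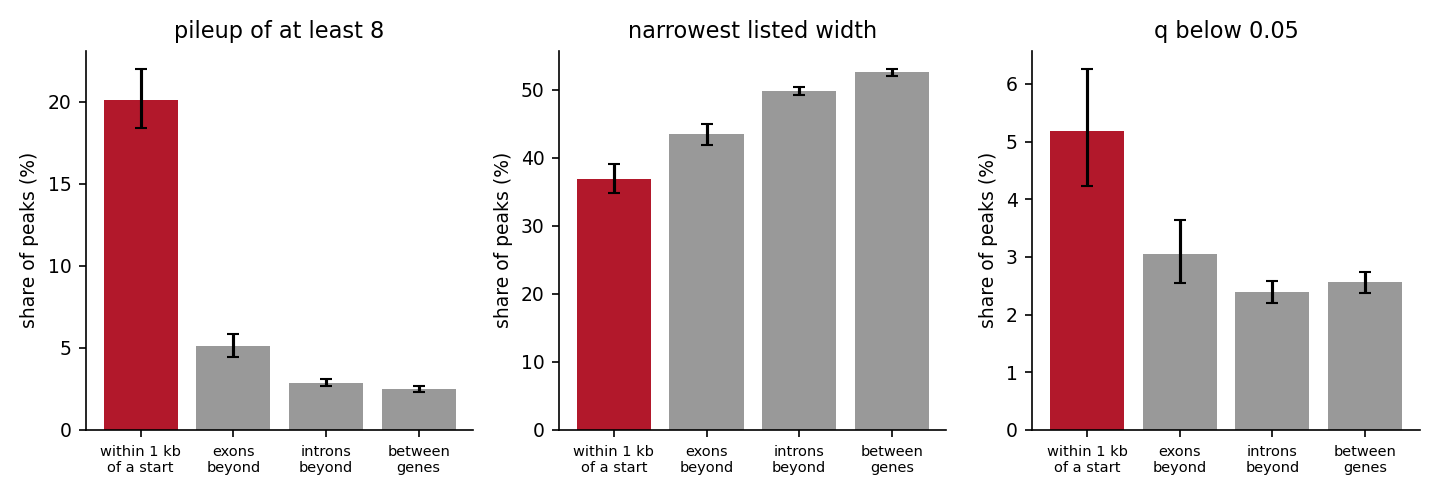
Share of peaks with a pileup of at least 8, with the narrowest listed width and with q below 0.05, for peaks within 1 kb of a start (red) and in the 3 other places (grey). Error bars are exact binomial 95% intervals; peaks near starts have the highest share for pileup (20.1%) and q (5.18%) and the lowest for minimum width (36.9%).

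The share of starts with a peak differed little between expression levels, while the height of the peaks rose with expression. A peak lay within 1 kb of 6.94% (exact binomial 95% interval 6.44 to 7.47) of starts with a mean RPKM up to 0.1, 7.27% (6.65 to 7.93) of those from 0.1 to 1, 7.48% (6.94 to 8.06) from 1 to 10, 7.27% (6.51 to 8.09) from 10 to 100 and 7.85% (5.53 to 10.7) at 100 or more. The 5 intervals overlapped. The median pileup rose through these levels as 5, 6, 6, 7 and 8, and the share of peaks with a pileup of at least 8 as 7.36%, 20.5%, 28.3%, 38.8% and 61.8%. Median width rose from 269 bp at the lowest level to 335 bp at the highest. Median fold enrichment was 3.11, 3.12, 3.11, 3.13 and 2.86, and pileup over fold enrichment went from 1.49 to 2.58. Counted over starts, 0.529% (0.394 to 0.695) at the lowest level and 4.71% (2.94 to 7.11) at the highest had a peak of pileup 8 or more, while a peak of fold enrichment 4 or more was held by 0.685% (0.530 to 0.870) and 0.673% (0.139 to 1.95). Over the 2191 gene and peak pairs, which share 1 ChIP library and its input, Spearman's rho with mean RPKM was 0.39 for pileup, 0.10 for width and -0.015 for fold enrichment.

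**Figure D3:**
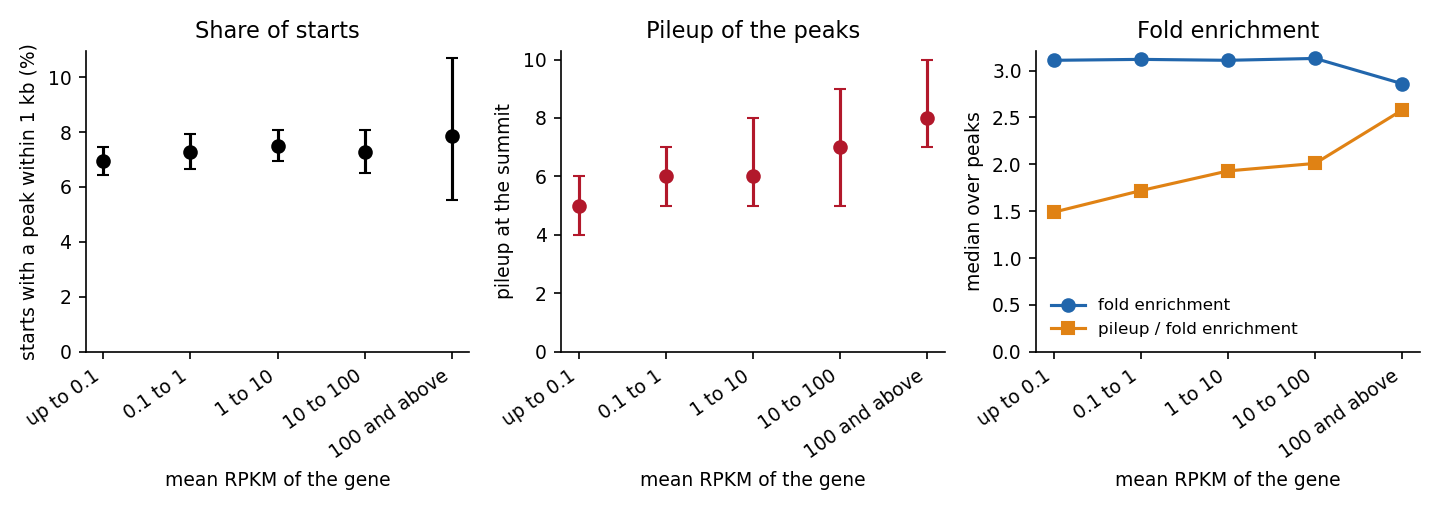
Left: share of gene starts with a peak within 1 kb by mean RPKM of the gene, with exact binomial 95% intervals. Middle: median pileup of those peaks with the interquartile range, rising from 5 to 8. Right: median fold enrichment (blue) and median pileup over fold enrichment (orange).

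Genes with a peak had a median RPKM of 0.711, against 0.599 for genes without one, and 992 of the 2128 (46.6%) reached a mean RPKM of 1, against 45.3% without one. Among protein-coding genes the order of the medians was the opposite, 2.62 with a peak and 2.76 without. By kind, a peak lay at 1199 of 15647 protein-coding starts (7.66%, 7.25 to 8.09), 105 of 1471 long noncoding RNA starts (7.14%, 5.87 to 8.58), 33 of 376 microRNA starts (8.78%, 6.12 to 12.1) and 184 of 3184 pseudogene starts (5.78%, 4.99 to 6.65). Kinds came from RefSeq symbols, and 27.8% of genes with a peak had no match. Most peaks, 1694, had 1 start within 1 kb, 216 had 2 and 21 had 3 or more, and 207 of these shared peaks had starts on both strands. At chr2:70994893-70995143, a peak of pileup 11 and fold enrichment 2.23 overlapped the promoter of TEX261 and lay within 1 kb of 3 starts. Conversely, 63 genes had 2 such peaks, among them POLR2C and TDRKH, and no gene had more.

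The 2 highest fold enrichments near starts were at pseudogenes of actin. The highest, 10.6 with a pileup of 16 and a q-value of 1.29e-12, lay at ACTG1P23 (chr3:175977450-175977872), a processed copy of the cytoplasmic gamma-actin gene. The next lay at ACTBP8, a copy of the beta-actin gene, with 8.36 and a pileup of 13, and ACTBP2 and ACTBP9 had 6.09 each. The centres of these 4 peaks lay 844 to 932 bp downstream of the start, over the exon of the copy. These genes were scarcely expressed: ACTG1P23 was at 0 RPKM in 5 of the 6 libraries, and the highest of the 4, ACTBP2, stood at 0.215 to 0.698. Of 17 starts named ACTBP or ACTG1P with a number, a group formed after these values were seen, 6 (35.3%) had a peak within 1 kb, and 4 of the 7 peaks reached a fold enrichment of 5. The parent gene ACTG1 had a peak of its own in an intron, centred 969 bp downstream of its outermost 5′ end, with a fold enrichment of 3.70 and a pileup of 7. Exons under that name spanned chr17:81509971-81523847, and the start in use was not determined. Such copies resemble their parent in sequence, and the placing of reads that match several copies was not given in the sources used here. Of the 23 peaks near starts with a fold enrichment of at least 5, 5 were at pseudogenes alone and 15 had a protein-coding start.

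Among protein-coding genes, the highest fold enrichment was at PQLC3 (6.22, pileup 14, q = 9.97e-06), whose peak was centred 597 bp upstream, and at POLR2C (6.21, pileup 13, q = 2.03e-05), which encodes a subunit of RNA polymerase II. UTP20, a factor of ribosomal RNA processing, had a peak over the start base (5.61, pileup 9, q = 0.00163). POLR2C held a second peak, over its start base, of fold enrichment 3.58. FERMT1, an integrin activator of epithelial cells, CCDC53, a subunit of the WASH complex, DDX39A, an RNA helicase, and LOX, which crosslinks collagen, had fold enrichments of 5.54, 5.53, 5.45 and 5.45. The 250 bases before the RefSeq start of UTP20 and of STAT2, an interferon pathway gene described further on, are given below. They show promoter sequence without either motif that a peak crossed, with the bases under the peak in capitals. These stretches hold 160 of the 379 bp of the UTP20 peak and 175 of the 255 bp of the STAT2 peak, and the rest is not shown.
UTP20, chr12:101279855-101280104, plus strand: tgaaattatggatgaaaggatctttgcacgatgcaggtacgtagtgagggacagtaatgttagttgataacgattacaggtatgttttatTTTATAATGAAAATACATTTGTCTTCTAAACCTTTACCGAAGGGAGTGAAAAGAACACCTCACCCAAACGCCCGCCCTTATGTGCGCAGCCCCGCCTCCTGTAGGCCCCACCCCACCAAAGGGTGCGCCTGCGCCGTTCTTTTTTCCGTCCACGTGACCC
STAT2, chr12:56360108-56360357, minus strand: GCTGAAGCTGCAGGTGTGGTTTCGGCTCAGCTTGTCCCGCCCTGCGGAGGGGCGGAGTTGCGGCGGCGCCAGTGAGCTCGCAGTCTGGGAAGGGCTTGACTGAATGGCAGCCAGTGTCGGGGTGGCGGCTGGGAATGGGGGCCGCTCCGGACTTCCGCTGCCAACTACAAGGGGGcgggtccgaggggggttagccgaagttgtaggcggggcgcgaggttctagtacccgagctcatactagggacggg

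Of the protein-coding genes named for these highest fold enrichments, LOX, DDX39A and CCDC53 were called changed. PQLC3, POLR2C, UTP20 and FERMT1 (log2 fold change 0.13, limma adjusted p = 0.266) were not. Over all genes tested, the quartiles of the log2 fold change were -0.14 and 0.35. PQLC3 stood at 1.44, 0.881 and 1.56 RPKM with JunD, against 1.56, 1.54 and 1.13 with the empty vector, and the groups overlapped (log2 fold change -0.11, limma adjusted p = 0.656). POLR2C was at 8.89, 9.55 and 11.1 against 7.85, 9.23 and 8.34 (0.20, limma adjusted p = 0.133). UTP20 was at 9.35, 9.30 and 8.49 against 7.98, 8.29 and 8.72 (0.11, limma adjusted p = 0.195), again overlapping. LOX changed most among these genes, at 4.76, 4.74 and 6.32 RPKM with JunD, against 3.05, 2.74 and 2.53 with the empty vector (log2 fold change 0.81, limma adjusted p = 0.00238). DDX39A fell from 36.4, 34.8 and 34.0 to 27.1, 27.4 and 30.7 (-0.30, limma adjusted p = 0.0104). CCDC53 passed the test at 0.26 (limma adjusted p = 0.0231) but not with median-of-ratios scaling (limma adjusted p = 0.172), nor without empty-vector replicate 2 (limma adjusted p = 0.0717), empty-vector replicate 3 (limma adjusted p = 0.0740) or JunD replicate 2 (limma adjusted p = 0.0772). The highest pileup of any peak near a start, 54 with a fold enrichment of 2.5, lay by the clone-named locus CH507-513H4.3 on the short arm of chromosome 21, and the next, 20, lay near SNORD42B, a small nucleolar RNA inside RPL23A. RPS27 and NOL6, a ribosomal protein and a nucleolar factor, followed ZNF335 and ACTG1P23 at 15 each, and neither RPS27 (0.12, limma adjusted p = 0.485, and 0.0159 without JunD replicate 1) nor NOL6 (0.11, limma adjusted p = 0.199) passed the test.

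Genes with a peak near the start were not called changed more often than other genes. Of the 992 tested, 284 (28.6%, exact binomial 95% interval 25.8 to 31.6) were higher with JunD, against 31.5% of all 13379 genes tested, and 135 (13.6%, 11.5 to 15.9) were lower, against 14.7% of all. A rise of at least 2-fold was called at 42 (4.23%, against 3.64% of all), and a fall of at least 2-fold at 10 (1.01%, against 0.822% of all). The 3 libraries of each group did not overlap at 534 (53.8%), and at 57.4% of all genes tested. Adding both directions, 42.2% (39.1 to 45.4) of genes with a peak were called and 46.2% of all, which lies above that interval. The median log2 fold change was 0.094 for genes with a peak and 0.10 for all. Median-of-ratios scaling moved the median of all genes to -0.017 and turned the split among genes with a peak to 198 higher and 235 lower, where all genes had 21.5% higher and 23.5% lower. The count of lower genes with a peak fell to 82 without empty-vector replicate 1 and to 85 without empty-vector replicate 2, as the count over all genes fell from 1963 to 1338 and 1333. The remaining 1136 genes with a peak fell below the expression filter and have no test.

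Sets of taller or stronger peaks did not hold a larger share of called genes beyond their intervals. At peaks with a pileup of at least 8, 99 of 346 genes were higher (28.6%, 23.9 to 33.7) and 46 lower (13.3%, 9.90 to 17.3). At peaks with q below 0.05, 17 of 64 were higher (26.6%, 16.3 to 39.1) and 11 lower (17.2%, 8.90 to 28.7). At peaks with a fold enrichment of at least 4, 25 of 109 were higher (22.9%, 15.4 to 32.0) and 17 lower (15.6%, 9.36 to 23.8). Where the peak covered the start base, 64 of 197 were higher (32.5%, 26.0 to 39.5) and 22 lower (11.2%, 7.13 to 16.4). Each of these 8 intervals holds the share of all tested genes, 31.5% or 14.7%, and the smaller sets leave wide limits. Across the 1026 pairs with a tested gene, Spearman's rho of the log2 fold change was -0.018 with pileup and 0.0027 with fold enrichment. At a mean RPKM of 100 or more, 10 of 35 genes with a peak were higher (28.6%, 14.6 to 46.3) and 7 lower (20%, 8.44 to 36.9), beside 16.8% and 33.8% of the 411 genes without one.

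**Figure D4:**
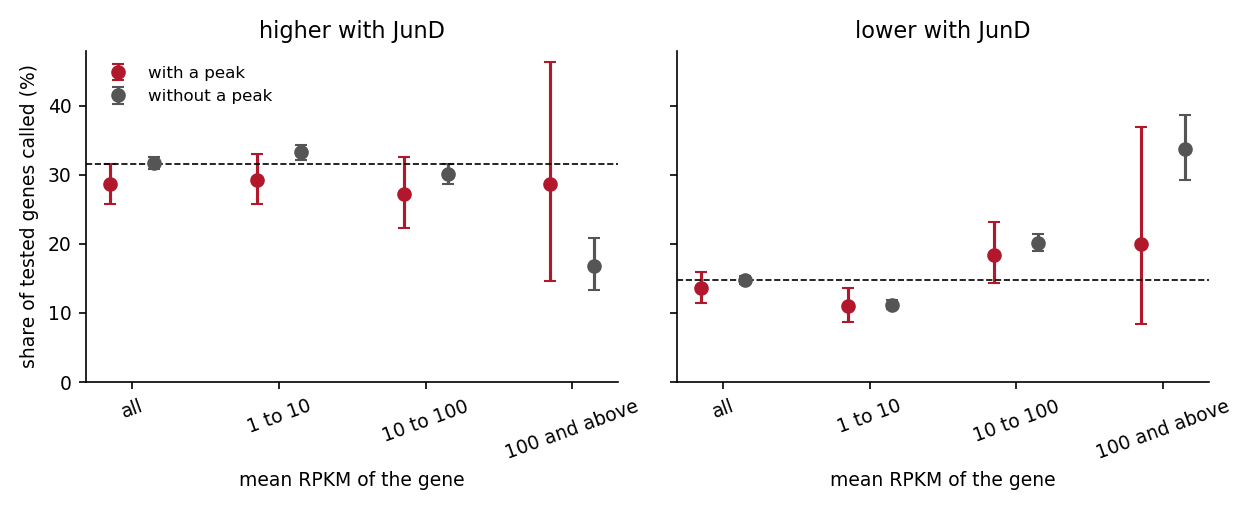
Share of tested genes called higher (left) and lower (right) with JunD, for genes with a peak near the start (red) and without one (grey), over all tested genes and by mean RPKM, with exact binomial 95% intervals. The dashed line is the share of all tested genes, 31.5% and 14.7%, and the intervals with a peak hold it in the leftmost pair.

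Of the 10 genes with a peak that rose most, 5 belonged to the list of interferon-stimulated genes. These genes are induced by interferon signalling, and many encode antiviral proteins. Of 49 in the fixed list, 7 (14.3%) had a peak near the start, and all 6 of those tested rose, as did all 48 tested members of the list. Over the whole table, 7.23% of starts had a peak and 31.5% of genes tested were higher. ISG15, a ubiquitin-like modifier, went from 19.3, 15.9 and 15.4 RPKM to 548, 578 and 779 (log2 fold change 5.18, SE 0.15, limma adjusted p = 1.99e-06). Its peak, centred 305 bp upstream of the outermost exon, had a pileup of 8, a fold enrichment of 2.18 and q of 0.579. Exons under this name spanned chr1:1001138-1014541, and how far the peak lies from the start in use was not determined. TRIM22, an antiviral ubiquitin ligase, went from 0.440, 0.482 and 0.660 to 24.9, 22.8 and 21.9, with a peak of fold enrichment 2.86 centred 1001 bp into the gene. IFIH1, which encodes the RNA sensor MDA5, went from 0.934, 1.07 and 0.989 to 34.0, 31.2 and 31.4, with a peak over an exon of fold enrichment 2.73. In all 3 every JunD library lay far above every empty-vector library. STAT2 had the peak of highest fold enrichment in this list, 4.15 with a pileup of 9 and q of 0.0565, centred 155 bp upstream. It stood at 13.2, 13.6 and 13.8 RPKM with JunD and 3.74, 3.12 and 3.28 without (1.86, limma adjusted p = 8.48e-06). IFITM3, which blocks viral entry, rose by 3.17 (limma adjusted p = 3.48e-05), and 21.3% of its exon length is shared with RP11-326C3.12. Its exons spanned chr11:319669-327537, with the peak at the outermost end (chr11:327216-327521). HELZ2, a helicase outside the list, had a peak over its start base and rose from 1.98, 1.68 and 1.52 RPKM to 13.2, 13.1 and 19.8 (2.81, limma adjusted p = 5.68e-05). The sensor DHX58 was below the filter, at 1.38, 0.978 and 1.26 RPKM with JunD and 0.0440, 0.114 and 0.0437 without.

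The peak at HLA-B, which encodes a class I antigen-presenting chain, lay over an exon 1158 bp into the gene and within 1 kb of the starts of MIR6891 and XXbac-BPG248L24.12. HLA-B rose from 101, 90.1 and 88.1 RPKM to 444, 413 and 556 (log2 fold change 2.32, limma adjusted p = 2.86e-05). XXbac-BPG248L24.12 shares 54.7% of its exon length with HLA-B, and other class I genes are close in sequence, so the rises at this peak are not separate. The same holds for AC009950.1 (2.60, limma adjusted p = 1.37e-06), all of whose exon length is shared with the interferon-stimulated gene SP110.

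Among AP-1 subunits, JUN, FOSL2 and MAFF had a peak near the start, 3 of 16, and 11 of the 14 tested members of the list rose and none fell. JUN stood at 116, 116 and 119 RPKM with JunD and 91.9, 91.2 and 90.7 without (0.36, limma adjusted p = 0.00121), under a peak of pileup 11 and fold enrichment 2.90 centred 722 bp upstream. MAFF, a small Maf protein, rose from 5.70, 5.72 and 5.92 to 21.9, 21.9 and 22.2 (1.84, limma adjusted p = 1.37e-06). FOSL2 had a log2 fold change of 0.25 (limma adjusted p = 0.0312) and lost its call with median-of-ratios scaling (limma adjusted p = 0.118) and without any 1 empty-vector library (limma adjusted p = 0.0730 to 0.0961). SPRY4, an inhibitor of growth factor signalling from the immediate early list, rose from 1.47, 1.5 and 1.52 to 3.94, 3.87 and 3.96 (1.14, limma adjusted p = 3.50e-05), under a peak of pileup 12. Over that list 15 of 17 tested genes rose and 1 fell. In the NF-kB list, 2 of 20 genes had a peak, and 13 of the 20, all tested, rose and none fell. TRAF1, a signalling adaptor, rose from 0.717, 0.722 and 0.737 to 5.84, 4.91 and 5.25 RPKM (limma adjusted p = 5.79e-06), and the subunit gene RELB from 1.28, 1.36 and 1.2 to 3.29, 3.47 and 4.63 (1.26, limma adjusted p = 4.31e-04). Of 21 cytokine genes CXCL1 and CCL26 had a peak, and 7 of the 8 tested in that list rose and none fell. Over all genes tested, 31.5% were higher with JunD. CXCL1, a neutrophil attractant with a peak over its start base, was low throughout, at 1.54, 1.06 and 2.05 RPKM with JunD and 0.479, 0.599 and 0.432 without (1.01, limma adjusted p = 0.00522). CCL26 was below the filter.

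Genes of matrix turnover and antioxidant defence moved in both directions, while those of the stress response and the p53 targets mostly rose. Of all genes tested, 31.5% were higher and 14.7% lower. Of 21 genes for matrix proteases or plasminogen activation, 3 had a peak, of which 2 rose and 1 fell, and over the list 12 of 17 tested rose and 4 fell. The membrane protease MMP14 rose from 43.9, 41.3 and 40.4 RPKM to 57.8, 56.0 and 66.3 (0.51, limma adjusted p = 0.00232), under a peak of pileup 9 and fold enrichment 3.90. The gelatinase MMP2 fell from 8.03, 7.91 and 8.16 to 4.02, 4.05 and 4.03 (-0.91, limma adjusted p = 4.33e-05). Its peak, of fold enrichment 3.49, was centred 800 bp past the outermost 5′ end of exons that spanned chr16:55389700-55506691. Of 27 genes of the integrated stress and unfolded protein response, all tested, 22 rose and none fell, and 2 had a peak. CTH, which makes cysteine and is a target of that response, had a peak over its start base of pileup 11. It rose from 0.678, 0.434 and 0.765 to 1.93, 1.63 and 2.15 RPKM (1.10, limma adjusted p = 0.00137). SEL1L, which acts in the degradation of misfolded proteins, had a peak of pileup 10 and was not called, at 8.94, 9.22 and 9.23 RPKM in empty-vector libraries and 8.51, 7.93 and 8.63 in JunD libraries (-0.12, limma adjusted p = 0.122). With median-of-ratios scaling SEL1L was called lower, the 1 fall in its list, while 21 genes rose. Of 18 tested p53 targets, 15 rose and 1 fell. XPC, a DNA damage sensor and the 1 gene of 21 p53 targets with a peak, rose from 15.3, 15.7 and 18.1 to 27.6, 26.8 and 23.6 (0.65, limma adjusted p = 0.00159), and it shares 23.8% of its exon length with AC093495.4. In the list of NRF2 and antioxidant genes, 4 of 23 tested rose and 10 fell. AKR1B10, an aldo-keto reductase of the NRF2 list, fell from 2.1, 1.92 and 2.34 to 0.867, 0.898 and 0.679 (-1.0, limma adjusted p = 5.99e-04), while GCLM, which acts in glutathione synthesis, stood at 11.2 to 13.3 RPKM in one group and 11.5 to 13.0 in the other (0.014, limma adjusted p = 0.908).

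**Figure D5:**
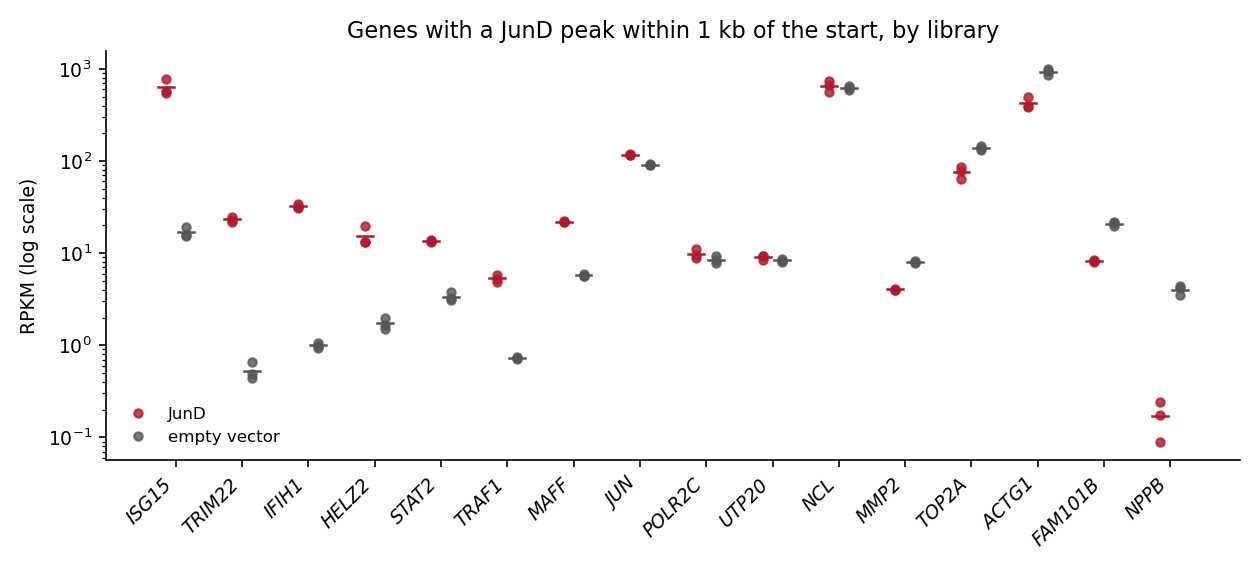
RPKM on a log scale in each library for 16 genes with a JunD peak near the start, with 3 JunD libraries (red) and 3 empty-vector libraries (grey) per gene and a bar at each mean. ISG15 to JUN lie higher with JunD, MMP2 to NPPB lie lower, and the libraries of UTP20, POLR2C and NCL overlap.

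The largest fall with a peak was that of NPPB, which encodes brain natriuretic peptide, a product better known from the heart. It went from 4.39, 4.14 and 3.55 RPKM to 0.174, 0.0902 and 0.244 (log2 fold change -2.76, SE 0.12, limma adjusted p = 1.54e-05), under a peak of pileup 9, fold enrichment 2.11 and q of 0.579 centred 543 bp upstream. FAM101B, a filamin-binding protein, went from 21.6, 21.0 and 19.9 to 8.22, 8.11 and 8.51 (-1.28, limma adjusted p = 1.28e-05). ACTG1, cytoplasmic gamma-actin, went from 989, 948 and 865 to 388, 397 and 492 (-1.14, limma adjusted p = 3.39e-04), the largest loss in RPKM among the named genes with a peak. With MYH10, a nonmuscle myosin heavy chain (43.5, 43.0 and 48.6 to 30.7, 27.7 and 24.4, limma adjusted p = 0.00149), both genes with a peak in the actomyosin list fell, as did 16 of its 23 tested members, while 3 rose. Of all genes tested, 14.7% were lower and 31.5% higher. REEP2, FAM171A1 and PCSK7, a proprotein convertase, fell by 1.07, 1.03 and 1.04 on the log2 scale, each with a peak of fold enrichment 3.82 to 4.64 whose pileup was 8 to 10. RP5-956O18.3 and CTD-2510F5.6, which also fell by over 1, share 100% and 75.8% of their exon length with GALNT2 and SMG8.

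All 3 mitotic genes with a peak fell, as did 25 of the 30 in that list, where 14.7% of all genes tested were lower. TOP2A, which untangles chromosomes before division, went from 132, 138 and 146 RPKM to 86.1, 77.7 and 63.3 (-0.88, limma adjusted p = 0.00129). BIRC5, the survivin gene, went from 54.2, 55.1 and 52.4 to 28.2, 29.3 and 27.3 (-0.92, limma adjusted p = 4.60e-05). BUB1, a spindle checkpoint kinase, had 2 peaks, one on either side of the start, both with a pileup of 5, and went from 20.6, 21.4 and 21.6 to 13.7, 12.4 and 12.9 (-0.69, limma adjusted p = 2.27e-04). The fold enrichment of the peaks at these 3 genes was 2.18 to 2.66, and the bulk RNA values do not separate fewer dividing cells from less RNA per cell. Of 35 DNA replication genes 2 had a peak, PRIM1 (0.25, limma adjusted p = 0.0555, and 0.0488 without JunD replicate 2) and RPA3 (-0.14, limma adjusted p = 0.206, and 0.0159 without JunD replicate 3).

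Cytosolic ribosomal protein genes, which are transcribed at a high rate from short promoters, had the most genes with a peak of any list in number, 12 of 74 (16.2%, where 7.23% of all starts had one). This was also the largest list. By share, AP-1 subunits stood higher (18.8%), and interferon-stimulated genes and matrix proteases were each at 14.3%. Peaks at RPS27, RPL8, RPS27A and RPS3 had pileups of 15, 12, 11 and 11 and fold enrichments of 3.37, 2.74, 3.58 and 2.53. Of the 12, 2 fell and none rose, RPS27A from 63.9, 65.9 and 60.1 RPKM to 49.0, 54.1 and 56.8 (-0.25, limma adjusted p = 0.0290) and RPS3 from 86.7, 83.7 and 73.9 to 65.4, 65.8 and 73.7 (-0.25, limma adjusted p = 0.0428). Over the list 15 of 74 fell and none rose, and 14.7% of all tested genes fell, so 2 of 12 was near both shares. Each of these 2 calls was lost without empty-vector replicate 1 or 2 and without JunD replicate 1 or 2 (limma adjusted p = 0.0671 to 0.140). With median-of-ratios scaling 5 of the 12 fell, and with TPM scaling (RPKM rescaled to a common total) none did. RPL19, among the genes of highest RPKM with a peak, stood at 411, 433 and 425 with JunD and 423, 423 and 414 without (0.0099, limma adjusted p = 0.892). NCL, the nucleolar protein nucleolin, had a peak 638 bp wide of fold enrichment 4 and stood at 740, 677 and 557 against 586, 617 and 660 (0.076, limma adjusted p = 0.614). Ribosomal protein genes have many near-identical pseudogene copies, between which the counting could have split reads.

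The few peaks read on either side of the distance limit were wider inside it, while their pileups overlapped. Just inside it were peaks 1000 bp from the starts of LINC00884 and MYLK3 and 998 bp from that of RP11-28B23.1. They were 405, 390 and 356 bp wide, with pileups of 7, 5 and 4 and fold enrichments of 2.89, 3.36 and 3.08. Just outside were peaks 1001 bp from FAM150B, 1002 bp from MTERF4 and 1003 bp from FEZ1, each of the minimum width of 251 bp, with pileups of 4, 4 and 3 and fold enrichments of 2.75, 2.88 and 2.46.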

How the data were processed

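RNA sequencing of 6 libraries and ChIP-seq of 1 JunD and 1 input library were analysed. The authors deposited expression as RPKM and a peak list with, for each peak, a fold enrichment (a ratio), p- and q-values, and a pileup (a coverage signal). Per the submitters' processing notes, the build was GRCh38 and the tools included STAR 2.5.3a, MACS2 2.1.1, bedtools 2.25.0, Trimmomatic 0.36 and featureCounts (Subread 1.5.1). The annotation release, the strand setting and the ChIP aligner were not given in the sources used here. RPKM values were whole multiples of 1 read for 100% of values (tolerance 0.01 read).

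Of 29534 gene names, 117 at several places were left out. Peaks within 1 kb of a start (overlap of at least 1 bp) were taken in Python 3.11.15. Each gene with a mean RPKM of at least 1 entered a two-sided limma fit (version 3.58.1, R 4.3.3) of log2(RPKM + 0.5) with an intensity trend, and a Benjamini-Hochberg adjusted p below 0.05 over 13379 genes was a call. Fold changes on that scale understate changes of low genes. The script was tested on simulated data. Intervals are exact binomial (95%) and cover counting error only. The single peak list allows no test between places.

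The 1931 peaks, the 18 gene lists (435 of 453 entries matched) and the rules were chosen with earlier results of these data known. The named genes follow a rule: the 12 peaks of highest fold enrichment and the 8 of highest pileup, the 10 largest changes in each direction, list genes with a peak, the 6 genes of highest RPKM, and those with the most peaks or starts, the widest, the narrowest and those at the limit. Not every gene it takes is printed. Outside this rule are GJA1, ZNF138, EXO1, TP53INP2, PTPN9, POT1 and OMA1, taken for a motif under the peak after their values were seen. Alternatives covered the pseudocount, expression filter, scaling, replicate block, left-out libraries, distance window, peak thresholds and kinds of gene, and, chosen after seeing the data, limma voom on recovered reads.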

Additional observations from a re-analysis of the deposited data

How the results depend on the processing

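The peak list has 1 JunD library and 1 input library, so no value of a peak has a replicate check, and the total read depth of the ChIP libraries is unknown. The count of peaks near starts was 1212 with a 500 bp window, 3063 with a 2 kb window, 100 with q below 0.05, 197 with fold enrichment of at least 4 and 1156 at protein-coding starts. Called genes with a peak numbered 276, 666, 28 and 42 in the first 4 of these, and the share called was 38.5% at fold enrichment of at least 4, whose own interval, 29.4 to 48.3, holds the 42.2% of the 1 kb rule. Median width was 297.5 bp with the 500 bp window, 343.5 bp with q below 0.05, 328 bp with fold enrichment of at least 4 and 301 bp at protein-coding starts. Median pileup was 9 and 7, and median fold enrichment 4.64 and 4.31, under the q and fold thresholds, which select for both.

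From the lowest to the highest expression level, the share of starts with a peak was 4.24%, 4.56%, 4.84%, 4.56% and 5.16% with the 500 bp window, 11.8%, 11.4%, 11.6%, 10.8% and 11.7% with the 2 kb window, and 0.685%, 0.825%, 0.901%, 0.659% and 0.673% with fold enrichment of at least 4.

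With a mean RPKM of at least 5, where fewer genes were tested, 3741 genes were called over the whole table, 2334 of them higher, and 246 with a peak (158 higher, 88 lower). With median-of-ratios scaling 3143 were lower, 235 of them with a peak. With the replicate block 3998 were called (1188 lower), and 265 with a peak (187 higher, 78 lower). The numbers do not pair the libraries: the deviations of same-numbered libraries correlated at -0.17, -0.08 and -0.38, and no library correlated best with its own number. The cause of these shifts was not tested. With 1 library left out in turn, the count of lower genes with a peak ranged from 82 to 186, of higher ones from 206 to 297, and of all called from 291 to 483. Limma voom on recovered reads called 302 higher and 151 lower with a peak. A planned count-model test on recovered reads was not run. Among 55 named genes compared under the alternatives, 10 gained or lost a call under at least 1 of them and none reversed. SEL1L was not among the genes compared, and it was called lower with median-of-ratios scaling.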
